A study of Mus musculus with 12 samples.

Results

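The 35 nuclear genes described here encode aminoacyl-tRNA synthetases of the mouse, 19 of them cytosolic enzymes and 16 of them mitochondrial enzymes. A gene was measured where a probe cluster of the array carried its symbol, or the older form without the final 1, as its only gene, and the cluster with the highest mean was used where a gene had several. By that rule 34 of the 35 genes had a value, 18 cytosolic and 16 mitochondrial, among 19938 genes with a cluster of their own. Aars1, the alanyl enzyme of the cytosol, lay on a cluster that it shares with another gene, so no value is given for it.

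Lung RNA came from wild-type C57BL/6J mice of 8 to 10 weeks of age, and no group carried an engineered allele or a drug. The 4 groups were female mice in room air, female mice after 48 h of hyperoxia (FiO2 above 95%), male mice in room air and male mice after the same 48 h of hyperoxia. There were 3 arrays in each group, and the RNA on an array was pooled from 4 mice, which means that the errors and p-values below measure the spread between pools and not between animals. All values are on the log2 scale of the array, on which a difference of 1 is a doubling, and a difference counts as a call below when its Benjamini-Hochberg adjusted p in the limma fit over all clusters was under 0.05 and its fold change at least 1.4.

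Most synthetases join 1 amino acid to the tRNAs that read its codons, and the charged tRNA is what the ribosome uses. Most amino acids have a separate enzyme for the cytosol and for the mitochondrion, both encoded in the nucleus, while the glycyl and lysyl enzymes of both compartments come from single genes, Gars1 and Kars1. When charging falls short, the uncharged tRNA activates the kinase GCN2, which phosphorylates eIF2 and raises the translation of the transcription factor ATF4, and several cytosolic synthetase genes are known targets of ATF4 in cultured cells.

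The arrays were alike in their overall values, which for the medians follows from the quantile normalization of the deposited data. Array medians lay between 8.12 and 8.20, and the correlation between any 2 arrays over all clusters was between 0.969 and 0.995. The mean of 14 markers of squamous epithelium, a cell type of the oesophagus and upper airway, ranged from 7.40 to 10.61 and was highest on 3 female arrays, 2 from room air and 1 from hyperoxia. Leaving those arrays out keeps 1 female room air array and 2 female hyperoxia arrays, with the spread supplied by the other groups and the lone array assumed to vary like them, and gave 11 cytosolic calls in females. No male array is left out by it.

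Upstream sequences of the genes were taken from RefSeq on the build GRCm38.p6, with 250 bases before and 50 bases after an annotated start, to show where the C/EBP-ATF response element lies, the motif bound by ATF4 with its partners. Its letters were taken as TGATGNAA, or TTNCATCA on the other strand, and 3.97% of the 32851 promoters in the table held it, or 4.51% of the 27025 genes when a gene counts with a match in any of its promoters, as the genes below are counted. The table held 12 of the 19 cytosolic genes, and 5 of the 12 had the motif: Aars1, Gars1, Iars1, Tars1 and Yars1. Of the 16 mitochondrial genes 14 were in the table, and 0 of the 14 had it. The next lines print the stretches around the match in 4 genes that rose in hyperoxia, followed by 3 genes without a match in their window. Each is written 5′ to 3′ on the gene's strand, with the motif in capitals.
Gars1, chr6:55037881-55038000, plus strand: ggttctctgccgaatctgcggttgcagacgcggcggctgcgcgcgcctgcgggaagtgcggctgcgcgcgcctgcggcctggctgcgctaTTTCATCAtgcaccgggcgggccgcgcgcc
Tars1, chr15:11399659-11399778, minus strand: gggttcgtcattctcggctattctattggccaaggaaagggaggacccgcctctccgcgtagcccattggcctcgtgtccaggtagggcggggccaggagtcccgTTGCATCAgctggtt
Yars1, chr4:129189895-129189924, plus strand: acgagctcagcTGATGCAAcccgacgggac
Iars1, chr13:49682126-49682155, plus strand: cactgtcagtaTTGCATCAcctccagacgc
Sars1, chr3:108445260-108445379, minus strand: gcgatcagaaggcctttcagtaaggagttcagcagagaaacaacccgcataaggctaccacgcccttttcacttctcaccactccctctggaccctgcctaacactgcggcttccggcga
Yars2, chr16:16302845-16302964, plus strand: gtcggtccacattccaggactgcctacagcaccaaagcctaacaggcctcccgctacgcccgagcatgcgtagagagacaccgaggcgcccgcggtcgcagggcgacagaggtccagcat
Qars1, chr9:108507885-108508004, plus strand: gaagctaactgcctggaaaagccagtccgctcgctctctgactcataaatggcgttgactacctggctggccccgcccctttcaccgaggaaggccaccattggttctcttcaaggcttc

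The match began at position -30 in Gars1 and at -15 in Tars1, just before the start. In Iars1 it began at +8 and in Yars1 at +4, counting the start base as +1, so there it lay at the very beginning of the transcript. The start used for Yars1 lies 169 bases inside the gene's outermost annotated start. A match of these letters is a description of the sequence and not a measured binding site. Of the 8 cytosolic genes that were called higher in both sexes and were in the table, 4 held the motif, and Sars1, the gene with the largest fold change, was among the 4 that did not. Among 14 regulators of the amino acid response in the table, 6 held it, against 3 of 14 genes of amino acid synthesis and 3 of 11 amino acid transporters. Of those called higher in both sexes, it was in 5 of 12 regulators, 2 of 9 synthesis genes and 1 of 7 transporters. Among the rest, measured or not, it was in 1 of 2, 1 of 5 and 2 of 4. The last 2 include Slc7a7, which was called lower in each sex.

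The cytosolic synthetases were higher after hyperoxia in both sexes. In females 11 of the 18 measured genes were called higher, against 3.59% of all 35556 clusters, and 0 were called lower, against 2.93%. In males 11 were called higher, against 3.94% of clusters, and 0 lower, against 3.39%. With array weights the share of clusters called higher in females was 6.18%, and the 11 female calls were kept. The same 11 genes were called in both sexes: Sars1, Yars1, Gars1, Eprs1, Iars1, Nars1, Mars1, Tars1, Cars1, Rars1 and Farsb. The median log2 fold change over the 18 genes was 0.63 in females and 0.68 in males, and over all clusters it was -0.019 and -0.0020.

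Most of the other cytosolic genes moved in the same direction by less than the fold threshold. With the adjusted p alone, 16 of the 18 genes were higher in females, against 9.08% of clusters, and 16 in males, against 10.0%. By the limma test 0 cytosolic genes were lower at the adjusted p alone or at an unadjusted p under 0.05, where the adjusted p alone was passed downward by 8.62% of clusters in females and by 9.30% in males. In 16 of the 18 genes every hyperoxia array lay above every room air array of the same sex, in females and in males alike. Such a separation held for 14.7% of all clusters in females and 16.2% in males.

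In whole lung RNA, fewer cells of a type and less RNA per cell cannot be told apart. Cell type markers moved with the exposure. The mean of the 8 lung epithelium markers lay between 12.62 and 12.74 on the room air arrays and between 12.45 and 12.57 on the hyperoxia arrays. In each sex 2 of the 8 were called lower, Sftpa1 and Lamp3, and 1 was called higher, Aqp5. Of 12 endothelial markers 4 were called lower in each sex, with Ednrb falling by 1.82 in females and 1.73 in males and Kdr by 0.99 and 1.05, and the mean of the list went from 11.76 to 11.96 over the room air arrays to 11.29 to 11.41 over the hyperoxia arrays. Of 10 neutrophil markers 0 were called in females and 5 were called lower in males, with list means of 8.17 to 8.93 in female room air, 8.08 to 8.51 in female hyperoxia, 8.39 to 9.05 in male room air and 7.91 to 8.08 in male hyperoxia. Of 9 B cell markers 0 were called in females and 5 were called lower in males, and of 8 T cell markers 0 and 2. Over all clusters 2.93% were called lower in females and 3.39% in males. For the difference between the responses of the sexes 0 genes of the neutrophil, B cell and T cell lists were called. At an unadjusted limma p under 0.05 there were 4, 2 and 0. B cell list means went from 9.14 to 8.90 in females and from 9.20 to 8.62 in males. T cell means went from 8.42 to 8.20 and from 8.28 to 8.03. The male calls of Cd79a and Cd3g were each lost under 9 of the 27 alternatives. Macrophage markers moved both ways, with 4 calls upward and 2 downward among 10 for females and 2 upward and 1 downward for males. Over all clusters 3.59% were called higher in females and 3.94% in males. Of 11 proliferation markers 4 were called lower in females and 1 in males. At an unadjusted limma p under 0.05, 7 were lower in each sex. For the difference between the responses 0 genes of these 2 lists were called, and 1 proliferation marker had an unadjusted limma p under 0.05. The female calls of Top2a, Ccnb2 and Mki67 were lost under 7, 5 and 1 of the 27 alternatives, and the male call of Mki67 under 4. The part of these shifts in the synthetase values was not tested.

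**Figure D1:**
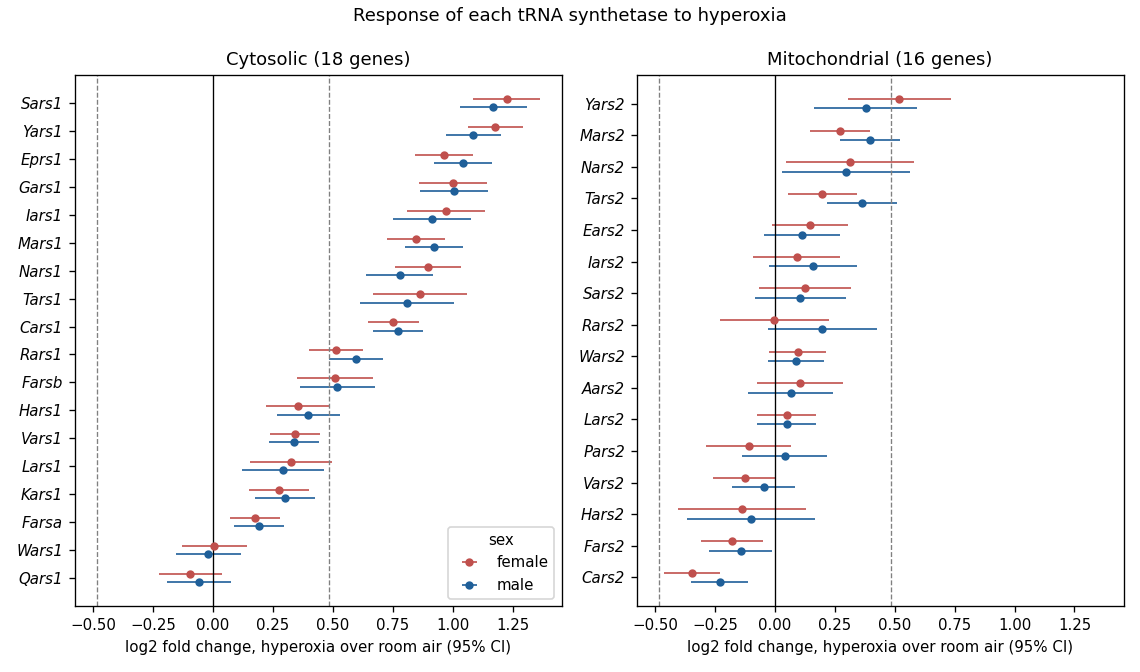
Hyperoxia over room air as log2 fold change (x axis) for the 18 cytosolic genes on the left and the 16 mitochondrial genes on the right, sorted by the mean of both sexes. Points are limma estimates for females (red) and males (blue), bars are 95% confidence intervals, and dashed lines mark a fold change of 1.4 in either direction; 11 cytosolic genes lie beyond the right line in both sexes, and among mitochondrial genes only Yars2 in females does.

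Sars1, which charges serine and also selenocysteine tRNA, had the largest fold change of the family. Its 3 female room air arrays read 10.40, 10.36 and 10.42, and the 3 female hyperoxia arrays read 11.60, 11.57 and 11.69. In males room air gave 10.33, 10.52 and 10.34, and hyperoxia gave 11.59, 11.57 and 11.55. The gap between the highest room air array and the lowest hyperoxia array was 1.15 in females and 1.03 in males, larger than the range within any of the groups. The log2 fold change was 1.22 ± 0.06 (SE) in females, a 2.34-fold rise with an adjusted p of 1.52e-06 by limma, and 1.17 ± 0.06 in males, a 2.25-fold rise with an adjusted p of 1.94e-06.

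Yars1, the tyrosyl enzyme, had the smallest adjusted p of the family. Female room air arrays read 9.09, 9.15 and 9.16 and female hyperoxia arrays 10.26, 10.28 and 10.38. Male room air arrays read 9.12, 9.20 and 9.16 and male hyperoxia arrays 10.23, 10.26 and 10.24. All 6 hyperoxia arrays lay more than 1 above all 6 room air arrays. The rise was 1.18 ± 0.05 in females, with a limma adjusted p of 6.40e-07, and 1.09 ± 0.05 in males, with an adjusted p of 8.66e-07.

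Gars1, the single glycyl gene for the cytosol and the mitochondrion, doubled in both sexes. Its female arrays went from 10.23, 10.13 and 10.16 in room air to 11.11, 11.18 and 11.23 in hyperoxia. Male arrays were at 10.11, 10.28 and 10.16 in room air and at 11.25, 11.14 and 11.16 in hyperoxia. The groups did not overlap, and the fold change was 2.00 in females (limma adjusted p 5.48e-06) and 2.01 in males (adjusted p 4.57e-06). Kars1, which likewise serves both compartments, had smaller differences, of 0.27 ± 0.06 in females and 0.30 ± 0.06 in males, with adjusted p of 0.00639 and 0.00351 and no call at the fold threshold.

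Eprs1 encodes the joint glutamyl and prolyl enzyme, the largest protein of the multisynthetase complex. Female room air arrays read 10.04, 9.97 and 10.09 and hyperoxia arrays 10.91, 11.03 and 11.05. In males the room air arrays read 10.01, 10.00 and 9.99, and hyperoxia arrays 11.03, 11.03 and 11.06, so that within each male group the arrays differed by less than 0.1. The log2 fold change was 0.97 ± 0.05 in females and 1.04 ± 0.05 in males, with limma adjusted p of 2.86e-06 and 1.73e-06.

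Iars1, the isoleucyl enzyme, was measured by a pair of clusters. On the brighter cluster female arrays rose from 10.89, 10.70 and 10.93 to 11.82, 11.75 and 11.88, and male arrays from 10.81, 10.93 and 10.83 to 11.79, 11.83 and 11.70. No room air array reached the level of any hyperoxia array. The log2 fold change was 0.97 in females and 0.91 in males on this cluster, and 1.01 and 0.99 on the other, so the clusters differed by less than 0.1.

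**Figure D2:**
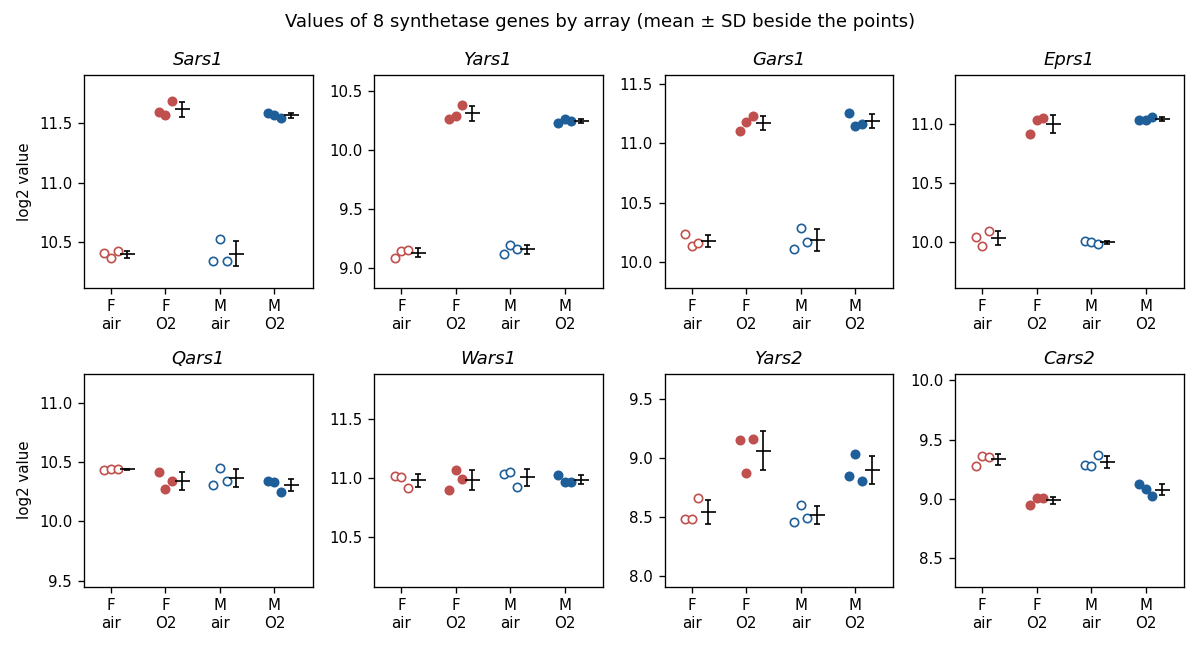
Log2 values (y axis, each panel spanning the same number of log2 units) of 8 synthetase genes on each of the 12 arrays, by sex (F, M) and exposure (air, O2). Open points are room air and filled points hyperoxia, and the dash with bars is the group mean ± SD of 3 arrays. Sars1, Yars1, Gars1 and Eprs1 separate fully, Yars2 is higher and Cars2 lower in hyperoxia. Wars1 overlaps in both sexes, and Qars1 overlaps in males and lies slightly lower in female hyperoxia.

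A second tier of called genes rose by 1.7-fold to 1.9-fold. Nars1, the asparaginyl enzyme, lay between 10.41 and 10.64 on the 6 room air arrays and between 11.31 and 11.43 on the 6 hyperoxia arrays, which gives log2 differences of 0.90 for females and 0.78 for males. Mars1, which charges both initiator and elongator methionine tRNA, lay between 9.55 and 9.65 in room air and between 10.41 and 10.55 in hyperoxia, with fold changes of 1.80 and 1.89. Tars1, the threonyl enzyme, was more variable between pools, with room air arrays from 8.63 to 8.89 and hyperoxia arrays from 9.48 to 9.69. Its standard error of 0.09 was the largest among the cytosolic genes, and its log2 difference came to 0.86 for females and 0.81 for males. Cars1, the cysteinyl enzyme, was among the tightest, from 9.10 to 9.20 in room air and from 9.88 to 9.95 in hyperoxia, with log2 fold changes of 0.75 and 0.77.

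Rars1 and Farsb passed the fold threshold by little. Rars1, the arginyl enzyme, rose 1.43-fold in females and 1.51-fold in males, from 10.35 to 10.48 over the room air arrays to 10.92 to 11.02 over the hyperoxia arrays. Farsb, the beta chain of the phenylalanyl enzyme, rose 1.42-fold in females and 1.43-fold in males, with room air arrays between 9.52 and 9.76 and hyperoxia arrays between 10.06 and 10.18. In neither gene did the exposures overlap. The call of Farsb was lost in females without female room air replicate 2, where its log2 fold change was 0.48, and in males without male room air replicate 1, where it was 0.47, since both are under the fold threshold of 0.49 on the log2 scale.

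Below that threshold stood 5 genes with an adjusted p under 0.05 in each sex. Hars1, the histidyl enzyme, had log2 differences of 0.35 (females) and 0.40 (males), and Vars1, the valyl enzyme, 0.34 and 0.34. Lars1, the leucyl enzyme that also takes part in leucine sensing by mTORC1, had 0.33 and 0.29, and Kars1 the values given above. Farsa, the alpha chain that pairs with the product of Farsb, had only 0.18 in females (limma adjusted p 0.0261) and 0.19 in males (adjusted p 0.0155). The chains of that 1 enzyme therefore differed in size of change on their clusters, with hyperoxia arrays of Farsa from 9.21 to 9.30 and room air arrays from 9.02 to 9.12.

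Wars1 and Qars1 were the cytosolic genes with no rise. Wars1, the tryptophanyl enzyme and a well-known interferon-induced gene, read 11.01, 11.00 and 10.92 in female room air and 10.90, 11.06 and 10.99 in female hyperoxia. Its male arrays read 11.04, 11.05 and 10.92 in room air and 11.03, 10.96 and 10.96 in hyperoxia, so the exposures overlapped in both sexes. The log2 fold change was 0.01 in females with a 95% interval from -0.13 to 0.14, and -0.02 in males with an interval from -0.16 to 0.12, neither of which reaches the fold threshold.

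Qars1, the glutaminyl enzyme, tended the other way. Female room air arrays all read 10.44 after rounding, and female hyperoxia arrays read 10.42, 10.27 and 10.34, all below them. Male room air arrays read 10.31, 10.45 and 10.34 and overlapped the hyperoxia arrays at 10.34, 10.33 and 10.25. Its log2 differences of -0.10 in females (95% interval -0.23 to 0.04) and of -0.06 in males (-0.19 to 0.07) did not pass the limma test, with adjusted p of 0.379 and 0.666.

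The genes called and not called were found in every structural group of the cytosolic enzymes. Of the 7 enzymes of the multisynthetase complex among the members, Eprs1, Iars1, Mars1 and Rars1 were called in both sexes, and Lars1, Qars1 and Kars1 were not. Their median log2 fold change was 0.51 in females and 0.60 in males, beside 0.75 and 0.77 for the 11 enzymes outside the complex, of which 7 were called. Synthetases also fall into classes by the fold of their catalytic domain. Among the cytosolic members 5 of 9 class I genes and 5 of 8 class II genes were called in each sex, and Eprs1, which joins a class I to a class II domain, was counted in neither. These are counts and were not tested against each other.

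The counts of calls for the mitochondrial synthetases were near those of all clusters. In females 1 of the 16 genes, Yars2, was called higher, beside 3.59% of clusters, and 0 lower, and in males 0 were called in either direction, beside 3.94% higher and 3.39% lower. The median log2 fold change over the 16 genes was 0.09 in females and 0.10 in males. The adjusted p alone was passed by 2 genes upward and 1 downward for females, and by 3 upward and 1 downward for males, beside 9.08% and 8.62% of clusters for females and 10.0% and 9.30% for males. At an unadjusted limma p under 0.05 there were 4 upward and 2 downward for each sex. The share of all clusters at that p was not computed, here or for the other lists. Hyperoxia and room air arrays overlapped in 11 of the 16 genes in females and in 8 in males, and over all clusters they overlapped in 69.6% and 67.1%. In males the overlap was thus less frequent than over all clusters. Every hyperoxia array lay above in 3 genes in females and 5 in males, beside 14.7% and 16.2% of clusters. Every one lay below in 2 and 3, beside 15.7% and 16.7%.

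Yars2, the mitochondrial tyrosyl enzyme, had the largest fold change of this group in females. Its arrays read 8.48, 8.48 and 8.66 in female room air and 9.15, 8.87 and 9.16 in female hyperoxia. In males they read 8.46, 8.60 and 8.49 in room air and 8.85, 9.03 and 8.81 in hyperoxia. The exposures did not overlap, although the spread within female hyperoxia was wide beside that of the cytosolic genes, with an SD of 0.17. The log2 fold change was 0.52 ± 0.10 in females (limma adjusted p 0.0036), a call, and 0.38 ± 0.10 in males (adjusted p 0.019), under the fold threshold. The female log2 fold change fell under the threshold without female hyperoxia replicate 1 (0.47) or female hyperoxia replicate 3 (0.47). Without the 3 arrays of highest squamous marker mean it stayed at 0.53 but had an adjusted p of 0.102, in a fit with 1 female room air array.

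Mars2 and Tars2, the mitochondrial methionyl and threonyl enzymes, were higher by smaller amounts. Mars2 read 9.001, 9.08 and 9.09 in female room air and 9.29, 9.38 and 9.33 in female hyperoxia, and 8.95, 9.01 and 9.07 against 9.40, 9.36 and 9.45 in males. Tars2 read 9.18, 9.23 and 9.06 against 9.29, 9.41 and 9.37 in females, and 9.20, 9.05 and 9.17 against 9.54, 9.49 and 9.48 in males. Both genes separated the exposures in both sexes. Mars2 passed the adjusted p alone in females (0.27, limma adjusted p 0.00661) and males (0.40, adjusted p 0.000632), and Tars2 in males (0.36, adjusted p 0.00269) but not in females (0.20, adjusted p 0.0656).

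Cars2, the mitochondrial cysteinyl enzyme, was the only member lower by the adjusted p in both sexes. The protein is also known to form cysteine persulfides. Its arrays read 9.28, 9.37 and 9.36 in female room air and 8.95, 9.01 and 9.002 in female hyperoxia, then 9.29, 9.28 and 9.37 in male room air and 9.12, 9.08 and 9.03 in male hyperoxia. Every hyperoxia array lay below every room air array. Its log2 fold change of -0.35 ± 0.05 in females (limma adjusted p 0.0011) and -0.23 ± 0.05 in males (adjusted p 0.0108) did not reach the fold threshold.

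The 12 remaining mitochondrial genes did not pass the adjusted p in either sex. Nars2, the asparaginyl enzyme, had the highest values of these, at 0.31 in females and 0.30 in males, with wide standard errors of 0.12. Those with log2 fold changes from 0.05 to 0.16 in each sex were Ears2 (glutamyl), Sars2 (seryl), Aars2 (alanyl), Wars2 (tryptophanyl), Iars2 (isoleucyl) and Lars2 (leucyl). Rars2, the arginyl enzyme, had -0.0031 in females and 0.20 in males, and Pars2, the prolyl enzyme, -0.11 and 0.04. Vars2 (valyl), Hars2 (histidyl) and Fars2 (phenylalanyl) had negative values in both sexes, down to -0.18 in females and -0.14 in males for Fars2, whose hyperoxia arrays lay below its room air arrays in both sexes.

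For 12 amino acids each compartment has 1 measured gene of its own, which allows the enzymes to be compared within an array. Phenylalanine, with the chains Farsa and Farsb in the cytosol, and glutamate and proline, which share Eprs1 there, were left out of the pairs. For each array the mitochondrial log2 value was taken from the cytosolic one, and this difference was compared between exposures. The cytosolic gene gained on its mitochondrial counterpart in 11 of the 12 pairs in each sex, with every hyperoxia array above every room air array, and the exception was the same pair, Wars1 and Wars2. The median gain was 0.58 in females and 0.49 in males. It was largest for Cars1 over Cars2, at 1.10 and 1.00, and for Sars1 over Sars2, at 1.10 and 1.06. Yars1 over Yars2 gained 0.66 and 0.71 although both genes were higher. The smallest positive gain was that of Lars1 over Lars2, at 0.28 in females and 0.24 in males. The clusters of a pair differ in their probes, and the response of a probe to a change in RNA can differ, so the size of these gains carries that uncertainty. The cytosolic changes given above enter every pair, and no share over other pairs of genes was computed. The median level was 9.98 over the measured cytosolic genes and 8.98 over the mitochondrial ones.

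**Figure D3:**
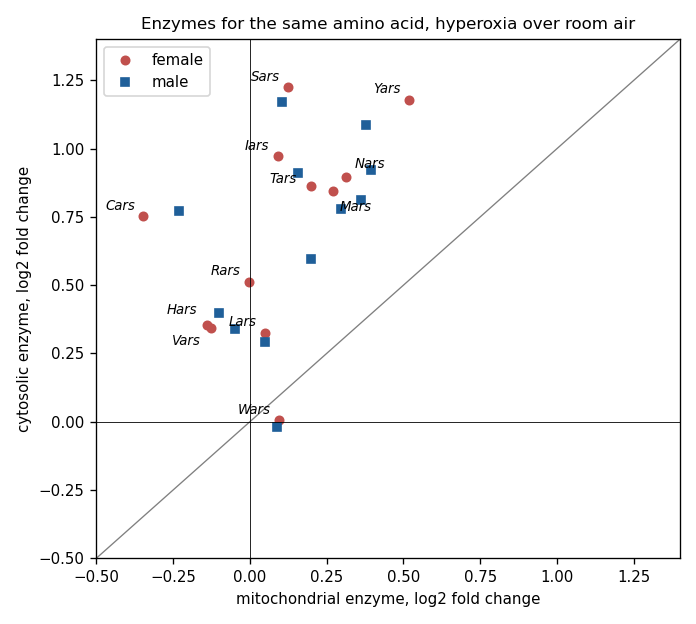
Log2 fold change of the mitochondrial enzyme (x axis) and of the cytosolic enzyme (y axis) for 12 amino acids, in females (red circles, labelled by the shared stem of the gene symbols) and males (blue squares). The grey diagonal marks equal change; 11 pairs lie above it in both sexes, and the tryptophanyl pair, labelled Wars, lies just below it.

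No synthetase passed a test of difference between the sexes. For the difference between male and female responses 0 of 34 genes were called by limma, against 0% of clusters, and 0 had an unadjusted p under 0.05. The differences, male minus female, ran from -0.14 for Yars2 to 0.20 for Rars2 on the log2 scale, and the smallest unadjusted p was 0.102, for Tars2. For Sars1 the 95% interval of this difference was -0.25 to 0.14, and for Yars1 it was -0.25 to 0.07. Males and females in room air differed in 0 of 34 genes, against 0.0141% of clusters, with 0 at an unadjusted p under 0.05. In hyperoxia 0 of 34 were called, against 0.0169% of clusters, and Tars2 alone had an unadjusted limma p under 0.05. Its p was 0.0446 and its adjusted p over all clusters 0.945. The intervals do not show that the sexes respond alike: that of the difference for Rars2 ran from -0.12 to 0.52.

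The synthetases act together with other proteins, and several of these were also higher in hyperoxia. Eef1e1, a scaffold protein of the multisynthetase complex, rose by 1.13 in females and 1.13 in males, from arrays between 9.01 and 9.37 in room air to arrays between 10.26 and 10.45 in hyperoxia. The other scaffold genes, Aimp1 and Aimp2, had 0.33 and 0.32 in females and 0.53 and 0.42 in males, and of these only Aimp1 in males was called. That call was lost in 2 of the 12 fits that left out 1 array, those without male room air replicate 1 or male hyperoxia replicate 2. Of 8 genes of tRNA export and end processing, 2 were called higher in females and 3 in males, led by Mettl1, a tRNA methyltransferase (1.06 and 1.23), and Xpot, the exportin of tRNA (0.61 and 0.58). Over all clusters 3.59% were called higher in females and 3.94% in males. The female call of Xpot was not made in the fit without the 3 arrays of highest squamous marker mean, in which 1 female room air array is left.

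Genes that supply the amino acids were also higher, with list medians of 1.06 and 1.03 for synthesis and 0.71 and 0.70 for transport in females and males. Of 15 measured genes of amino acid and one-carbon synthesis 11 were called higher in each sex and 0 lower, with the largest log2 fold changes in Mthfd2, of mitochondrial folate metabolism (2.74 in females, 2.67 in males), Asns, which makes asparagine (2.12 and 2.22), and Psat1, of serine synthesis (1.69 and 1.85). Of 15 transporters 10 were called higher in females and 11 in males. They were led by the cystine carrier Slc7a11 (3.14 and 3.21), the large neutral amino acid carrier Slc7a5 (1.99 and 2.00) and the cationic carrier Slc7a1 (1.56 and 1.65). Slc7a7, a carrier of cationic amino acids found in macrophages and epithelia, was called lower in each sex, at -0.59 and -0.50, though the male call was lost with arrays centred on their medians and without male room air replicate 2.

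Regulators of the amino acid response moved with them. Of 15 genes 13 were called higher in females and 14 in males, among them the transcription factors Atf3 (2.65 and 2.47) and Nupr1 (1.92 and 1.91), the pseudokinase Trib3 (1.74 and 1.64) and the glutathione-degrading enzyme Chac1 (1.55 and 1.54). Atf4 itself read between 9.52 and 9.69 on the room air arrays and between 10.62 and 10.76 on the hyperoxia arrays, a rise of 1.10 for females and 1.07 for males. Of 8 genes for the eIF2 kinases, their partners and the phosphatase subunits, 2 were called higher in females and 1 in males. For this list and the regulators, the share of all clusters called higher was 3.59% in females and 3.94% in males. The stress-induced phosphatase subunit Ppp1r15a rose by 1.35 and 1.14. The female call was also made for Ppp1r15b, at 0.49 in females and 0.41 in males, and was lost with the mean of all its clusters and in 2 of the 12 fits without 1 array. The transcripts of the kinases Eif2ak1, Eif2ak2, Eif2ak3 and Eif2ak4, the last of which encodes GCN2, were not called in either sex. Over the 8 genes log2 fold changes ran from -0.25 to 1.35 in females and from -0.34 to 1.14 in males. At an unadjusted limma p under 0.05, 3 of the 8 were higher and 1 lower in females, and 2 and 1 in males. Kinase activity was not measured.

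The unfolded protein response of the endoplasmic reticulum also acts through eIF2. Of 12 genes listed for it, 1 was called higher and 1 lower in each sex. The shares of all clusters were 3.59% and 2.93% in females and 3.94% and 3.39% in males. That list leaves out genes that act through eIF2, such as Atf4 and Ppp1r15a, which are counted above and were called higher in both sexes. In 5 of the 12 every hyperoxia array lay below every room air array in each sex, beside 15.7% of clusters in females and 16.7% in males, and at an unadjusted limma p under 0.05 there were 5 lower and 2 higher in each sex. Herpud1 had 0.54 in females and 0.69 in males, and Hsp90b1 -0.50 and -0.54, with the female call of Hsp90b1 lost under 4 alternatives other than the fold threshold. The chaperone Hspa5, the usual marker of this response, had 0.04 and 0.04. Among the 7 measured subunits of eIF2 and eIF2B, Eif2s2 (1.06 and 0.99) and Eif2b3 (0.60 and 0.68) were called higher in both sexes. The female call of Eif2b3 was likewise not made in that fit with 1 female room air array.

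**Figure D4:**
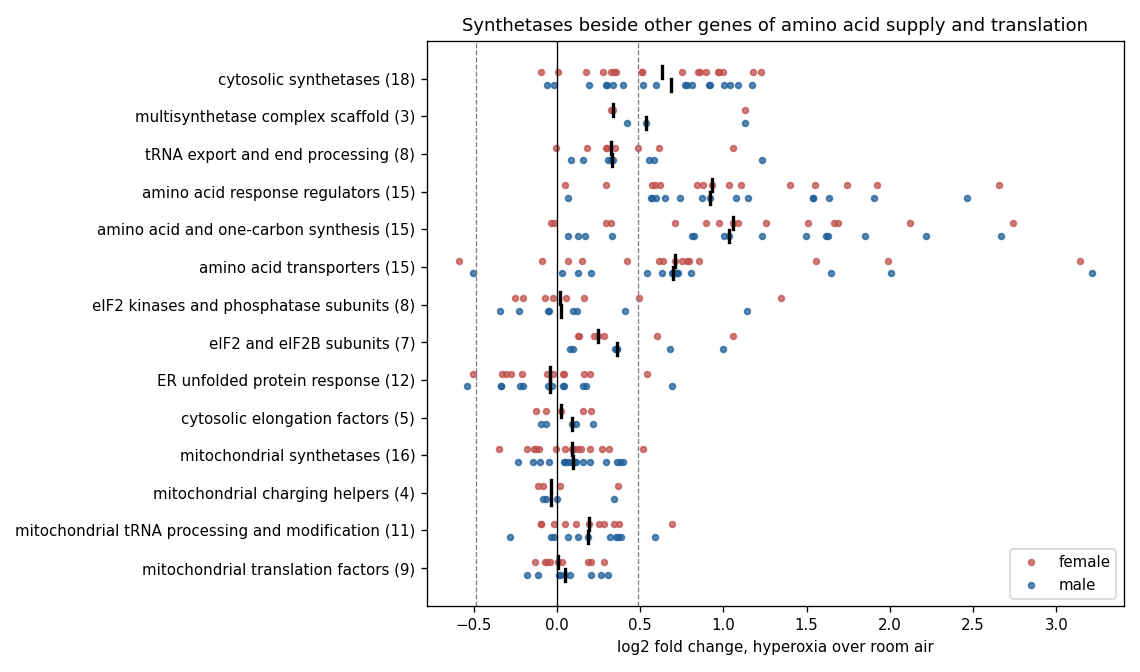
Hyperoxia over room air as log2 fold change (x axis) for each measured gene of 14 lists (rows, number of measured genes in parentheses), in females (red) and males (blue). Black bars are list medians and dashed lines mark a fold change of 1.4; the cytosolic synthetases, amino acid response regulators, amino acid synthesis genes and transporters have medians beyond the right line in both sexes, and the mitochondrial synthetases lie around 0.1.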

How the data were processed

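Lung RNA was hybridised to Affymetrix Mouse Gene 1.0 ST arrays. The deposited values are log2 expression per probe cluster, which the authors obtained by robust multi-array averaging (RMA), a method that corrects the background, applies quantile normalization and summarises the probes of each cluster. RMA is named in the submitters' processing notes, without a version. Array signal compresses large differences in RNA, and precision is limited by having 3 arrays in a group.

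The 35556 clusters were read as deposited, with no filter. Of these, 21789 carried 1 gene symbol in the platform annotation, 1621 carried several and were not named, and 12146 were not listed there. Older symbols were replaced by current ones for the members, and the cluster with the highest mean represented a gene. Group means of all 12 arrays were fitted with limma 3.58.1 in R 4.3.3, with no covariate, in 5 contrasts: hyperoxia against room air in each sex, males against females in each exposure, and the difference of the responses. P-values were adjusted by Benjamini-Hochberg over all clusters within a contrast, and a call needed both an adjusted p under 0.05 and 1.4-fold or more, the thresholds named in the study design. The fit was also run on simulated data with independent noise between arrays, which does not show how it does where arrays deviate together. Figures and summaries used Python 3.11.15.

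The members, the gene lists and the tests were chosen with earlier results of these data known. All members are named, and of each other list at most 4 called genes with the largest mean change, plus genes not called where their role is described. Marker lists are given by counts and means with at most 3 genes named. Atf4, for its role, and Slc7a7, the 1 transporter called lower, were named outside this rule with their values known. The alternatives were a replicate block, each sex alone, a trended robust fit, array weights, other normalizations, a filter on dim clusters, other thresholds and adjustments, the mean of all clusters of a gene, the squamous marker mean as a covariate, and leaving out arrays.

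Arrays of the female groups with the same replicate number deviated together from their group means, with correlations from 0.283 to 0.698 over the 3 pairs, while those of the male groups did so in 2 of 3 pairs, from -0.168 to 0.330. Same-numbered arrays of different sexes gave correlations from -0.708 to 0.291, so correlations as large in absolute size also arose between the sexes. The labels do not state a pairing. A block for the female groups was added after seeing the data.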

Additional observations from a re-analysis of the deposited data

How the results depend on the processing

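Over 27 alternatives, 4420 values of single synthetases were recomputed and 0 reversed their sign while called. With a replicate block, and with a replicate block in the female groups only, the counts of called cytosolic genes were 11 in females and 11 in males and those of mitochondrial genes 1 and 0, so neither block changed a call of a synthetase. The fold threshold moved the counts most. At a fold change of at least 2, the calls were 2 cytosolic genes in females, 4 in males and 0 mitochondrial genes in females, and with no fold threshold they were 2 mitochondrial genes higher in females and 3 in males, and 1 synthetase lower in females and 1 in males. Without the 3 arrays with the most squamous markers, which leaves 1 female room air array, 0 mitochondrial genes were called higher in females. Leaving out 1 array at a time gave 10 to 11 cytosolic genes in each sex, 0 to 1 mitochondrial genes in females, and mitochondrial medians of 0.054 to 0.101 in females and 0.065 to 0.108 in males. With arrays centred on the median, the median log2 fold change was 0.67 in females and 0.73 in males for cytosolic genes and 0.13 and 0.14 for mitochondrial genes, and that of all clusters moved from -0.019 to 0.021 in females and from -0.0020 to 0.041 in males. With array weights 2199 clusters were called higher in females, against 1275. Rars1 in females lost its call under quantile normalization applied again, at 0.47. The causes of these shifts were not tested, beyond the thresholds' own construction. Standard errors of single synthetases ran from 0.047 to 0.12 on the log2 scale. They come from the limma fit, which shares 1 estimate of a gene's spread over the 4 groups and moderates it by that of other clusters. A gene therefore has the same error in both sexes, which is not the spread of the pools of that sex alone.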

Other observations

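Of the 5 measured cytosolic elongation factors and associated kinase, 0 were called in either sex by limma, with log2 fold changes from -0.13 to 0.20 in females, and 3 had an unadjusted p under 0.05 in females and 2 in males. Eef1a1, which carries charged tRNA to the ribosome, had -0.13 in females and -0.10 in males, and Eef2, which moves the ribosome along, 0.16 and 0.12. The 4 factors that clear wrongly charged tRNA were not called either, and Dtd2 had the lowest value, at -0.30 in females (limma adjusted p 0.00193) and -0.16 in males (adjusted p 0.0521).

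Of the 9 mitochondrial translation factors 0 were called in each sex by limma, with 2 at an unadjusted p under 0.05 in females and 3 in males, among them Tufm (0.03 and 0.02) and Gfm1 (0.28 and 0.21). Of the 4 genes that complete mitochondrial charging by amidation or formylation, Qrsl1 had 0.36 in females and 0.34 in males, with limma adjusted p of 0.00288 and 0.00366 and no call at the fold threshold, and Gatb, Gatc and Mtfmt lay between -0.11 and 0.02 in females. Of 11 genes of mitochondrial tRNA processing and modification 1 was called in each sex, Trmt10c, a subunit of mitochondrial RNase P, which rose by 0.69 in females and 0.59 in males. These counts, like those of the elongation and clearing factors above, stand beside 3.59% of clusters called higher and 2.93% lower in females. In males the shares were 3.94% and 3.39%.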
